A study of Mus musculus with 8 samples.

Results

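The mesenchymal stem and progenitor cells (MSPCs) of the bone marrow surround hematopoietic cells with an extracellular matrix, and 46 genes for matrix glycoproteins and proteoglycans were followed here out of the 52636 genes counted. They were chosen by symbol, with earlier results of these data known, and all 46 were found in the table by Ensembl identifier. Of these, 41 had counts in all 8 libraries and could be tested. A proteoglycan is a core protein that carries long sulfated sugar chains, and these chains bind growth factors, chemokines and water. Matrix glycoproteins form the adhesive and elastic scaffold around cells, and the matricellular ones, such as SPARC, tenascin-C and the thrombospondins, regulate how cells attach to that scaffold rather than bear load. In the marrow the sugar chains of glypicans and syndecans are known as a surface on which CXCL12 and other niche factors are held.

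The study asked if stem cells and progenitors compete for niche factors in a way that sets stem cell numbers. As a part of it, RNA of niche cells was profiled in mice whose multipotent progenitors lack the chemokine receptor Cxcr4. Both groups were littermates on a C57BL/6 background and carried Flk2-cre, which drives recombination in hematopoietic progenitors from the multipotent stage onwards and not in MSPCs. The CTR mice were Flk2-cre+ Cxcr4fl/+ and thus had 1 floxed Cxcr4 allele, and the cKO mice were Flk2-cre+ Cxcr4fl/fl. The labels give an age of 6 weeks for all mice, while the methods give an older range for mice of the study. Each of the 4 CTR and 4 cKO libraries came from polyA RNA of the MSPCs of a single mouse, flushed from long bones, digested with collagenase and sorted for PDGFRα and SCF-GFP and against CD45, Ter119, CD31 and CD144, so that mice of both groups also carried GFP at the Kitl locus. Cells left in the bones after flushing were not included. CTR1 to CTR4 and cKO1 to cKO4 denote the libraries by their replicate number. Each title also carries a number, from 26 to 32 in CTR2, CTR4, cKO2 and cKO4 and from 67 to 86 in CTR1, CTR3, cKO1 and cKO3, and the labels do not say what it stands for.

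The deletion is in hematopoietic cells, so Cxcr4 counts of MSPCs do not check the genotype labels. Total counts lay between 31047344 and 38216877 per library. All 10 MSPC markers were abundant, with Cxcl12 at 39570 to 50610 and Lepr at 3578 to 5026 CPM, the counts scaled to library size by the TMM method. The summed level of 10 endothelial markers was 4.38 to 13.6 CPM, that of 17 hematopoietic markers was 74.2 to 287 CPM, and that of 5 Schwann cell markers was 0 to 8.10 CPM. Of 11 fibroblast markers, Dpt, Clec3b and Cd34 were listed at 0 in all 8 libraries, and the sum of 266 to 391 CPM came largely from Gsn, which many cell types express. The 12 osteolineage markers summed to 15630 to 21140 CPM, and 7 megakaryocyte and platelet markers to 13.4 to 40.3 CPM. Of 8 chondrocyte markers, Acan, Col9a1, Matn1 and Matn3 were listed at 0 in all libraries and the sum was 55.2 to 118 CPM. In bulk samples fewer cells of a type and less RNA per cell cannot be told apart.

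The 46 genes together took 3.38 ± 0.291% of all counts in CTR and 3.49 ± 0.330% in cKO (SD, n = 4 each), with ranges of 3.06 to 3.75% and 3.09 to 3.85%. The difference was smaller than the spread between mice. This total was carried by few genes, since the 5 members with the highest counts held 74.0% of it in CTR and 75.4% in cKO. To compare genes, CPM were divided by the exon length of each gene in kilobases (CPM/kb). On this scale 2 members exceeded 1000, 9 lay between 100 and 1000, 19 between 10 and 100, 9 between 1 and 10, and 4 were below 1 but not 0. The remaining 3 were listed at 0. The plot of levels by library shows how little the 8 mice differed beside this range.

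**Figure D1:**
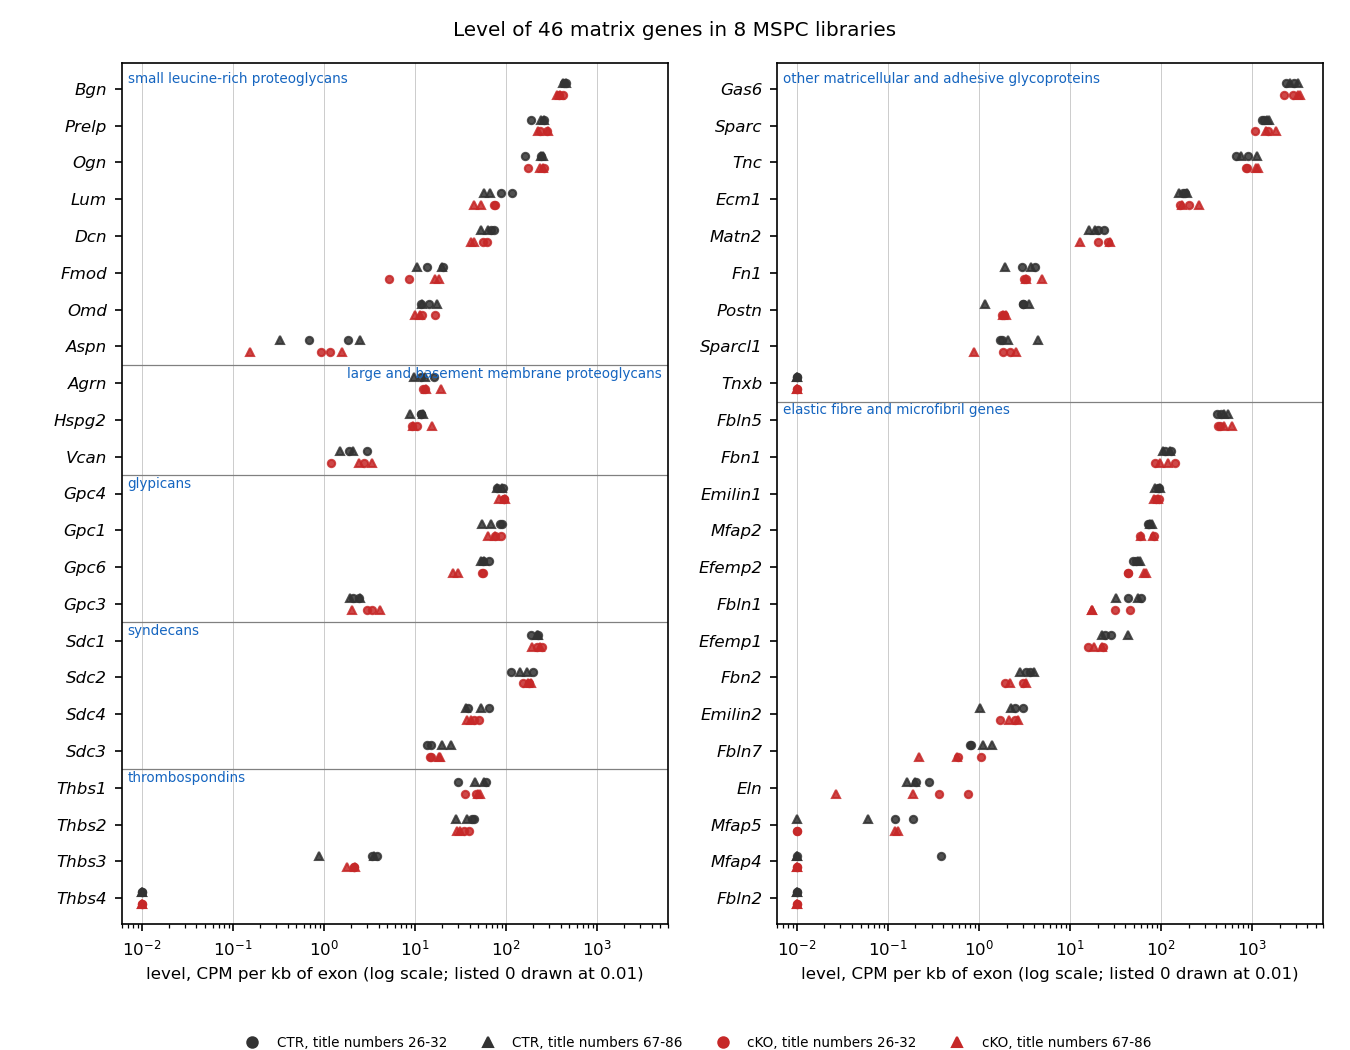
Level of the 46 genes in each library, in CPM per kb of exon on a log axis, grouped by role. Each point is 1 library, black for CTR and red for cKO, circles for title numbers 26 to 32 and triangles for 67 to 86, and values listed at 0 are drawn at 0.01. Gas6 at 2829 and Sparc at 1431 CPM/kb on average lay above all others, and points of both genotypes mix in nearly every row.

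Among the adhesive and matricellular glycoproteins, Gas6 had the highest level of all members at 2829 ± 414 CPM/kb (SD, n = 8), rank 10 among all genes of the table. Gas6 encodes a vitamin K-dependent ligand of the receptor kinases Tyro3, Axl and Mertk. Its CPM were 8124, 5976, 6674 and 7334 in CTR1 to CTR4 and 8107, 5687, 8620 and 7143 in cKO1 to cKO4. The genotypes overlapped fully, with a log2 fold change (cKO against CTR) of 0.07 ± 0.15 (edgeR, standard error). Of its receptors, Axl was at 21.8 ± 3.77, Mertk at 10.2 ± 0.810 and Tyro3 at 0.792 ± 0.344 CPM/kb. The sorted samples thus held mRNA of the ligand and of all its receptors, and from which cells it came was not tested.

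Sparc followed at 1431 ± 215 CPM/kb. SPARC, or osteonectin, binds collagen and is known as an abundant non-collagen protein of bone. Its CPM were 5824, 4856, 5494 and 5128 in CTR and 6905, 4087, 5385 and 5685 in cKO, and both extremes were cKO libraries. The difference was 0.05 ± 0.15 on the log2 scale. Gas6 was above Sparc in all 8 libraries and their ranges in CPM/kb did not overlap.

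Tnc came next at 930 ± 179 CPM/kb. Tenascin-C is a large matricellular protein that is known in the adult mainly from sites of repair and from stem cell niches. CPM of Tnc were 8761, 5163, 5929 and 7024 in CTR and 8973, 6696, 8505 and 6763 in cKO, a log2 fold change of 0.20 ± 0.18. The highest CTR library and the highest cKO library were nearly equal. Ecm1, a secreted glycoprotein of skin and bone matrix, had a level of 187 ± 32.7 CPM/kb, with CPM of 399, 459.8, 482 and 435 in CTR and 428, 514, 651 and 404 in cKO. cKO2 and cKO3 were above the CTR range and cKO1 and cKO4 were within it, and the log2 fold change of Ecm1 was 0.17 ± 0.15.

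The other members with this role were far lower. Matn2, a filament-forming matrilin, was at 20.7 ± 4.98 CPM/kb. Fn1, which encodes fibronectin, was at 3.41 ± 0.880 and periostin (Postn) at 2.27 ± 0.808 CPM/kb, while the SPARC relative Sparcl1 was at 2.18 ± 1.04. Tnxb was listed at 0 in all libraries. Fn1 was thus present at a level below that of 30 of the other members, and Hspg2, the next above it, was higher in 8 of 8 libraries.

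The small leucine-rich proteoglycans (SLRPs) are compact core proteins that coat collagen fibrils and set their diameter. All 8 were detected and tested. Biglycan (Bgn) led with 418 ± 33.4 CPM/kb, followed by Prelp at 250.3 ± 33.4 and Ogn at 230 ± 38.9. Lum was at 72.6 ± 23.1, Dcn at 57.9 ± 11.4, Fmod at 14.2 ± 5.66, Omd at 13.2 ± 2.59 and Aspn at 1.16 ± 0.794 CPM/kb. Bgn exceeded Prelp in 8 of 8 libraries, whereas Prelp exceeded Ogn in 5 of 8, so that the order of the latter pair was not resolved.

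Prelp, which links basement membranes to collagen, had CPM of 944, 691, 872 and 961 in CTR and 1055, 1038, 814 and 864 in cKO. Its log2 fold change was 0.12 ± 0.13. Ogn encodes osteoglycin, or mimecan. CPM of Ogn were 664, 414, 630.0 and 632 in CTR and 603, 449.5, 649.7 and 671 in cKO, a log2 fold change of 0.02 ± 0.17. In each genotype 1 library, CTR2 or cKO2, was well below the other 3.

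Several SLRP genes are neighbours in the genome, and expression was uneven within each cluster. Positions are on GRCm38, from GENCODE M21. On chromosome 10, over 202846 bp, Dcn (97479609 to 97518143) and Lum (97565128 to 97572703) were expressed, while Kera was listed at 0 and Epyc was at 0.027 CPM/kb. Keratocan and epiphycan are known from cornea and cartilage. On chromosome 13, over 119692 bp, Ogn (49608046 to 49624501) was at 230 CPM/kb, Omd at 13.2, Ecm2 at 13.4 and Aspn at 1.16. On chromosome 1, over 151079 bp, Prelp (133910304 to 133921414) was at 250.3 CPM/kb, Fmod at 14.2 and Optc at 1.24. Each cluster thus held genes whose levels per kb differed by more than the spread between libraries.

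Syndecans and glypicans are the cell surface heparan sulfate proteoglycans, the former with a transmembrane core and the latter with a lipid anchor. Sdc1 was at 221 ± 19.95 and Sdc2 at 167 ± 28.0 CPM/kb, above Sdc4 at 45.9 ± 9.95 and Sdc3 at 17.7 ± 3.83. Sdc1, best known from plasma cells and epithelia, had CPM of 869.9, 859, 847 and 723 in CTR and 899, 845, 735 and 945 in cKO, a log2 fold change of 0.05 ± 0.11. Sdc2, the syndecan typical of mesenchymal cells, had CPM of 609, 401, 507 and 707 in CTR and 675, 551, 619 and 634 in cKO. Its log2 fold change was 0.16 ± 0.16, and CTR held both its highest and its lowest library. Among the glypicans, Gpc4 was at 90.0 ± 7.01, Gpc1 at 75.7 ± 12.99, Gpc6 at 49.8 ± 14.0 and Gpc3 at 2.69 ± 0.759 CPM/kb. Gpc4 was among the steadiest members, with its highest library 1.23 times the lowest.

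The large and basement membrane proteoglycans were at modest levels. Agrin (Agrn), known for clustering acetylcholine receptors at the neuromuscular junction, was at 13.6 ± 2.89 CPM/kb. Perlecan (Hspg2) was at 11.2 ± 2.22 and versican (Vcan) at 2.28 ± 0.742 CPM/kb. Thbs1 at 47.2 ± 10.2 and Thbs2 at 36.3 ± 6.21 CPM/kb were the main thrombospondins, multimeric proteins that bind CD47 and inhibit angiogenesis, and their ranges overlapped. Thbs3 was at 2.51 ± 1.02 CPM/kb and Thbs4 was listed at 0. The receptor gene Cd47 was at 72.5 ± 5.91 CPM/kb.

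Elastic fibres are made of an elastin core within a sheath of fibrillin microfibrils, and fibulins, EMILINs and MFAPs attach to both. Of the 14 members with this role, Fbln5 was highest at 481 ± 64.6 CPM/kb, rank 4 among all 46. Fibulin-5 brings elastin and the crosslinking enzymes of the lysyl oxidase family to the microfibril. CPM of Fbln5 were 3378, 2804, 3792 and 3143 in CTR and 3387, 3089, 4107 and 2883 in cKO, a log2 fold change of 0.04 ± 0.14. Fibrillin-1 (Fbn1) was at 114 ± 18.3 CPM/kb, Emilin1 at 91.0 ± 4.99, Mfap2 at 73.0 ± 9.53 and Efemp2, or fibulin-4, at 54.5 ± 9.34. Fbln1 was at 37.7 ± 16.2 and Efemp1, or fibulin-3, at 24.6 ± 8.24 CPM/kb.

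Elastin itself (Eln) was at 0.272 ± 0.219 CPM/kb, with CPM of 1.29, 2.26, 1.58 and 1.66 in CTR and 1.53, 2.96, 0.215 and 6.15 in cKO. Outside the 46 genes, the crosslinking enzymes Lox and Loxl1 were at 261 ± 56.6 and 162 ± 14.5 CPM/kb, and the latent TGF-β binding proteins Ltbp2, Ltbp1 and Ltbp3 were at 117 ± 24.2, 72.1 ± 12.8 and 39.3 ± 1.81. Loxl3, Loxl2 and Loxl4 were lower, at 36.2 ± 3.02, 15.8 ± 5.40 and 1.13 ± 0.2998 CPM/kb. The lowest elastic fibre members were Fbn2 at 3.01 ± 0.691, Emilin2 at 2.22 ± 0.630 and Fbln7 at 0.813 ± 0.365 CPM/kb. Mfap5 had counts in 5 of 8 libraries, none above 0.667 CPM. Mfap4 had counts in CTR2 alone, at 0.734 CPM, and Fbln2 was listed at 0 throughout. These 3 genes, with Thbs4 and Tnxb, were the 5 members that could not be tested. A listed 0 is a weak measurement in this table, since 18 genes were at 0 in exactly 1 library with at least 60 counts in each of the other 7. Low odd counts from 3 to 19 were also 1.25 to 1.40 times as frequent as the even counts beside them.

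**Figure D2:**
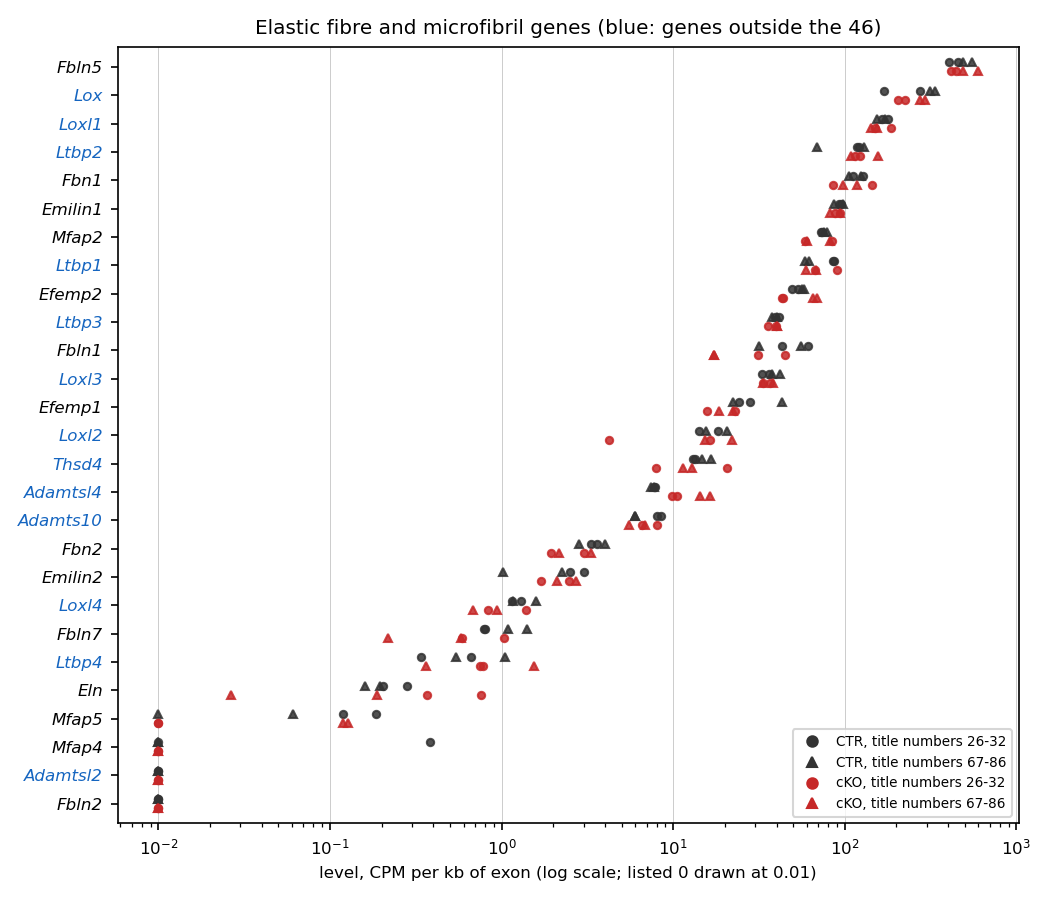
Level of elastic fibre genes in each library, in CPM per kb of exon on a log axis. Black names belong to the 46 genes and blue names to the list of crosslinking and latent TGF-β binding genes, and symbols are black for CTR, red for cKO, circles for title numbers 26 to 32 and triangles for 67 to 86. Fbln5, Lox and Loxl1 stand at 162 to 481 CPM/kb on average and Eln at 0.272.

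Exon length enters these levels as the union of all annotated exons. With the longest transcript in its place the order changed in part, and among other changes Bgn passed Fbln5 and Sdc1 passed Prelp and Ogn. Gas6, Sparc and Tnc stayed the first 3 on average. The ranges of Gas6 and Sparc then overlapped, and Bgn was above Tnc in some libraries. By the union of exons, ranges over the 8 libraries did not overlap between Gas6 and Sparc, Tnc and Fbln5, Bgn and Prelp, or Hspg2 and Fn1. All other neighbours in the order overlapped, Sparc and Tnc while Sparc was higher in 8 of 8 libraries. Reads of Fbn1 and Gpc1 could be shared with genes on the opposite strand, which cover 20.1% and 18.9% of their exon bases, and strand use in the counting is not stated.

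Promoters are shown for members picked from the comparison of genotypes, in which 0 of the 41 tested were called. Bgn was picked as the member whose genotypes did not overlap, and Fbln1 and Efemp1 as those with the smallest unadjusted p. Each promoter is the 200 bases before the RefSeq start on GRCm38.p6, from the plus strand, 5′ to 3′. Capitals mark a match to the AP-1 motif TGANTCA, which was searched on both strands with the TATA box TATAAA and the CCAAT box CCAAT. The windows are chrX:73483401-73483600 for Bgn, chr15:85205749-85205948 for Fbln1, whose first of 2 listed starts was used, and chr11:28853005-28853204 for Efemp1.
Bgn: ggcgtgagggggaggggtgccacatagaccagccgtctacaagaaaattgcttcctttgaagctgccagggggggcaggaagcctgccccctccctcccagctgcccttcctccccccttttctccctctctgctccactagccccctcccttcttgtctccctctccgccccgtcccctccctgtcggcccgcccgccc
Fbln1: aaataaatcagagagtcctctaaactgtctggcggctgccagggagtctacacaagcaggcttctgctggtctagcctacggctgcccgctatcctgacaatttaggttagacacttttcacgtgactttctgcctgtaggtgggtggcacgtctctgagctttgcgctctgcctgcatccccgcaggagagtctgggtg
Efemp1: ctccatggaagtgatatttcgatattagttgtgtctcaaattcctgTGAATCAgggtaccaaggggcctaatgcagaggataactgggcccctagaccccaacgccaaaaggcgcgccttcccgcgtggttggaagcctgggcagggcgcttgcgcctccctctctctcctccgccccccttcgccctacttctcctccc
The windows of Bgn and Fbln1 held none of the 3 motifs, and that of Efemp1 held 1 AP-1 match. Of 32851 promoter windows of this length, 5.48% held TGANTCA, 9.96% TATAAA and 29.4% CCAAT.

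The main comparison asked whether matrix genes of MSPCs differed when progenitors lacked Cxcr4. With edgeR's quasi-likelihood test and Benjamini-Hochberg adjustment over 14598 genes, 0 of the 41 members had an adjusted p-value under 0.05, and the share of all genes past this threshold was 0%. Limma-voom also called 0 members, and so did DESeq2. The DESeq2 shares of all genes were 0.158% in the Wald test and 0.151% in the likelihood ratio test. With title number range as a term in the latter, the share was 0.322%. The paper used a DESeq2 likelihood ratio test corrected for batch and reported differentially expressed genes in these MSPCs. The labels do not name that batch, so its fit was not repeated here. An unadjusted p-value under 0.05 was found in edgeR for 3 members, Dcn, Fbln1 and Efemp1, all with lower means in cKO. This is 7.32% of the members, beside 4.43% of all genes tested. The median log2 fold change was -0.05 over the members and -0.0013 over all genes, with 20 members above 0 and 21 below. The plot of differences shows members on both sides of 0 with errors that mostly reach it.

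**Figure D3:**
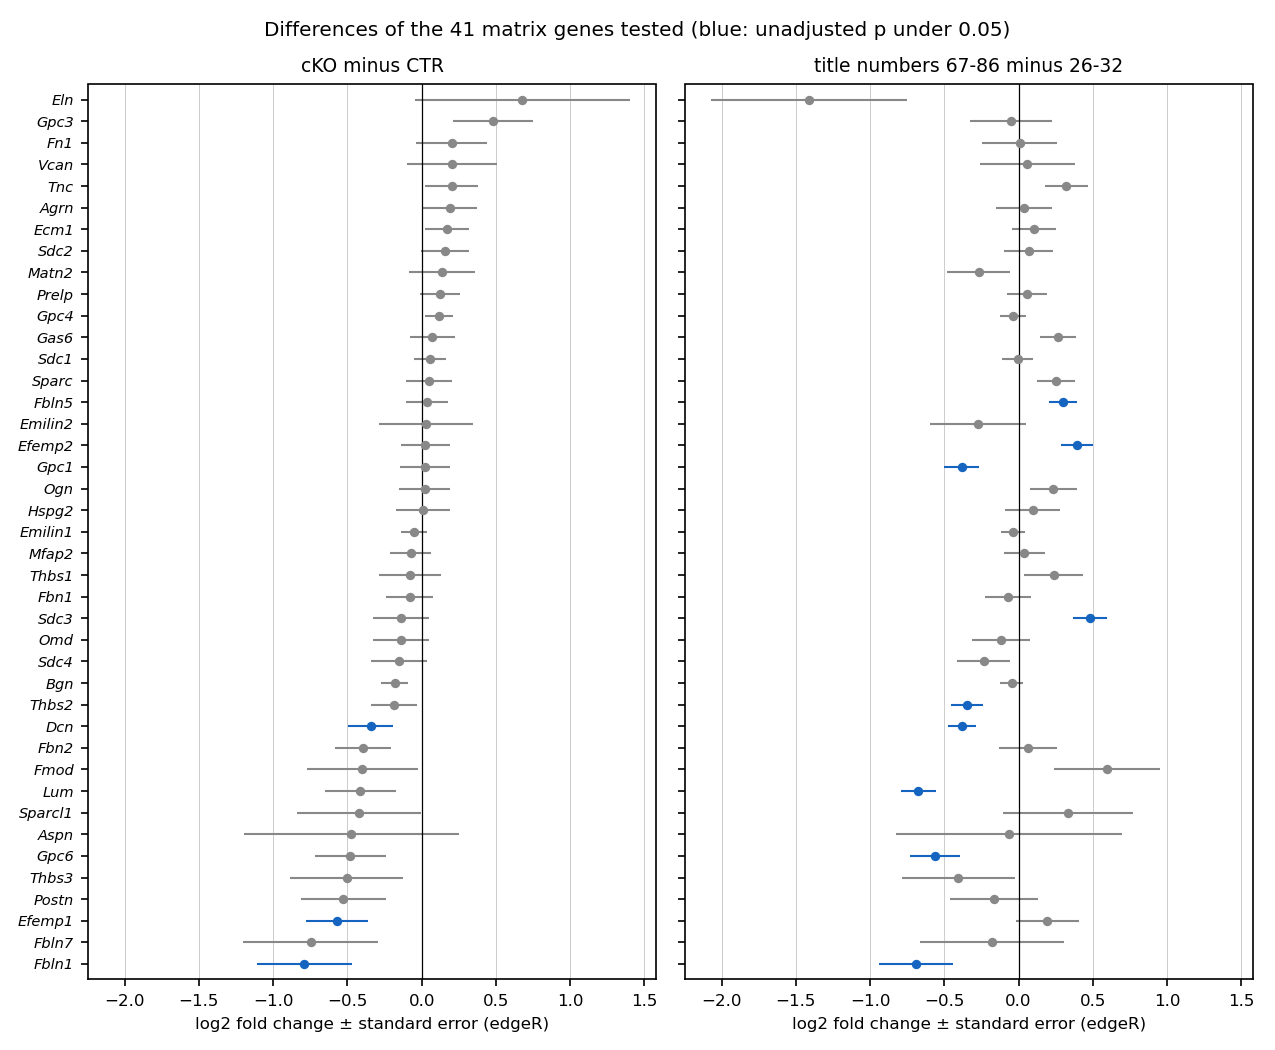
Log2 fold change ± standard error from edgeR for the 41 genes tested, cKO minus CTR at left and title numbers 67 to 86 minus 26 to 32 at right, in the order of the left panel. Blue marks an unadjusted p under 0.05, which 3 members had at left, all below 0, and 9 at right, 3 above and 6 below.

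Fbln1 had the largest estimate of these. Fibulin-1 binds fibronectin, laminin and the large proteoglycans in the pericellular matrix. CPM of Fbln1 were 139, 265, 243 and 188 in CTR and 75.1, 136, 75.5 and 196 in cKO. The 2 lowest libraries were cKO1 and cKO3, while cKO4 lay within the CTR range. The log2 fold change was -0.79 ± 0.32 (edgeR, unadjusted p = 0.033, adjusted p = 0.999), at -0.45 within title numbers 26 to 32 and -1.28 within 67 to 86.

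Efemp1 encodes fibulin-3, a relative of fibulin-1 in basement membranes. Its CPM were 45.7, 49.4, 87.2 and 57.4 in CTR and 37.4, 32.0, 45.3 and 46.7 in cKO. All cKO libraries but cKO4 lay below the lowest CTR library, and CTR3 stood above the rest. The log2 fold change of Efemp1 was -0.57 ± 0.21 (edgeR, unadjusted p = 0.022, adjusted p = 0.999), at -0.46 and -0.61 within the lower and the higher title numbers.

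Dcn encodes decorin, an SLRP that binds collagen I and TGF-β. CPM of Dcn were 369, 429, 309 and 404 in CTR and 259.7, 328, 241 and 363 in cKO. Both higher cKO values fell within the CTR range. Its log2 fold change was -0.34 ± 0.15 (edgeR, unadjusted p = 0.048, adjusted p = 0.999), with -0.27 and -0.43 within the title number ranges.

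Bgn was the only member whose genotypes did not overlap. Biglycan is the closest relative of decorin and, like it, binds TGF-β and collagen. CPM of Bgn were 2588, 2644, 2781 and 2825 in CTR and 2422, 2332, 2253 and 2561 in cKO, a gap of the groups between 2561 and 2588. The log2 fold change was small, at -0.18 ± 0.09 (edgeR, unadjusted p = 0.075, adjusted p = 0.999). One of 41 members without overlap is 2.44%, beside 2.61% of all genes, so the share is near the background.

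By role, 6 of the 8 SLRPs had a negative estimate, with a median of -0.26, and only Dcn, 12.5% of them, had an unadjusted p under 0.05. Of the 11 elastic fibre genes tested, Fbln1 and Efemp1, or 18.2%, passed this unadjusted threshold, with a median of -0.08. None of the 3 large proteoglycans, 4 glypicans, 4 syndecans, 3 thrombospondins and 8 other adhesive glycoproteins did, beside 4.43% of all genes tested. Lum and Gpc6 had the next lowest estimates among members above 10 CPM/kb, at -0.41 ± 0.24 and -0.48 ± 0.24, without passing it.

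**Figure D4:**
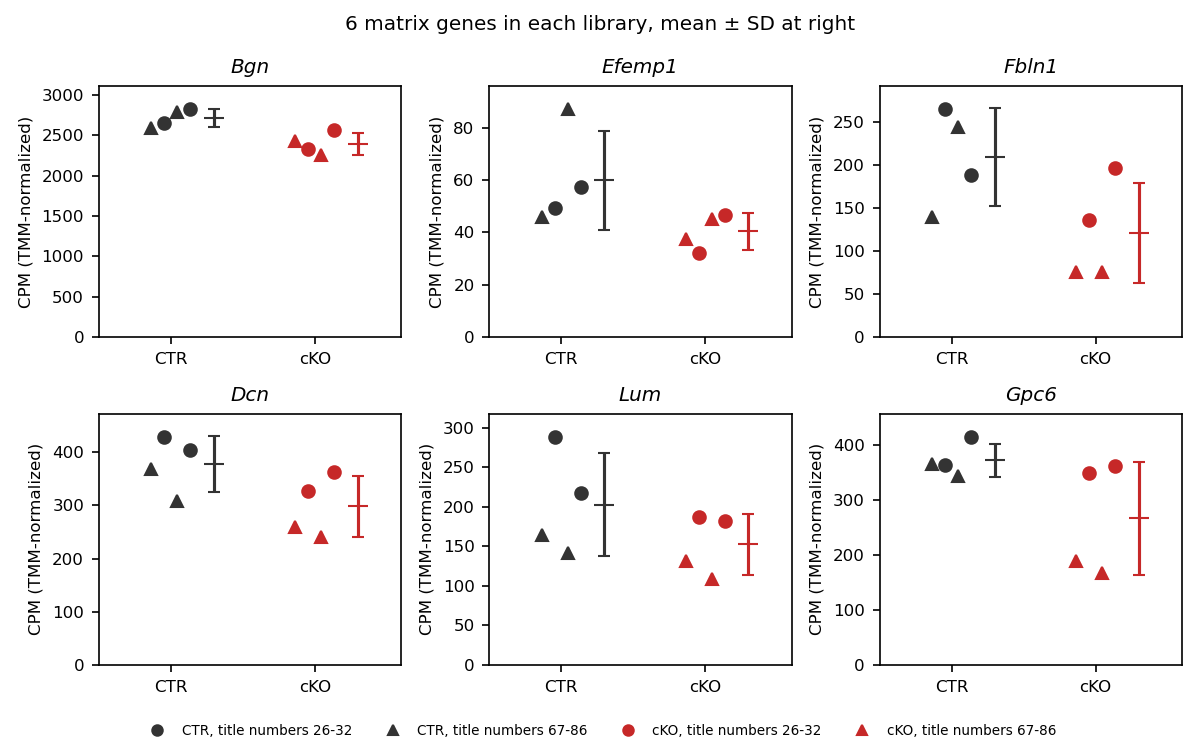
CPM of Bgn, Efemp1, Fbln1, Dcn, Lum and Gpc6 in each library from 0 upwards, CTR in black and cKO in red, circles for title numbers 26 to 32 and triangles for 67 to 86, with mean ± SD of 4 libraries at right of each group. Gpc6 was at 190 and 167 in cKO1 and cKO3 and at 345 to 416 in the other 6 libraries, and Lum was lower in triangles than in circles of both genotypes.

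The title numbers gave a second comparison, with genotype as a term, since each range holds 2 libraries of each genotype. In edgeR 0 of 41 members passed an adjusted p of 0.05, while 2 of all 14598 genes did, or 0.0137%. At an unadjusted p under 0.05 there were 9 members, 3 higher and 6 lower in 67 to 86, beside 11.6% of all genes. The ranges did not overlap for 5 members, or 12.2%, beside 7.69% of all genes. DESeq2 called 3 members here, Lum, Sdc3 and Dcn, beside 2.6% of all genes in the Wald test and 2.34% in the likelihood ratio test. Both for the members and for all genes, more passed the unadjusted threshold here than between genotypes.

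Lum had the smallest p-value. Lumican is an SLRP of collagen-rich tissues. CPM of Lum were 164 and 141 in CTR1 and CTR3 and 131 and 109 in cKO1 and cKO3, against 289 and 217 in CTR2 and CTR4 and 187 and 182 in cKO2 and cKO4. All libraries numbered 67 to 86 were below all others, with a log2 fold change of -0.68 ± 0.12 (edgeR, adjusted p = 0.112). Its neighbour Dcn, with the CPM given above, had -0.38 ± 0.09 (edgeR, adjusted p = 0.204), and its ranges overlapped.

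Sdc3, a syndecan known from the nervous system, had CPM of 120 and 151 in CTR1 and CTR3, 109 and 113 in cKO1 and cKO3, 80.9 and 91.4 in CTR2 and CTR4, and 88.6 and 91.4 in cKO2 and cKO4. The ranges did not overlap, with 0.48 ± 0.11 on the log2 scale. Efemp2, required for elastin crosslinking, had CPM of 212 and 219 in CTR1 and CTR3, 259.8 and 246 in cKO1 and cKO3, 201 and 186 in CTR2 and CTR4, and 164 and 163 in cKO2 and cKO4. It too was higher in 67 to 86 without overlap, by 0.39 ± 0.11. Fbln5 did not overlap either, at 0.30 ± 0.10. Eln had no overlap in the other direction, at -1.41 ± 0.66, but with few counts and an unadjusted edgeR p of 0.061.

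Gpc1, the glypican known from brain and muscle, had CPM of 280.4 and 352 in CTR1 and CTR3, 397 and 328 in cKO1 and cKO3, 468 and 449 in CTR2 and CTR4, and 392 and 457 in cKO2 and cKO4. The difference was -0.38 ± 0.12, and cKO1 and cKO2 were nearly equal. Thbs2 had CPM of 265 and 199 in CTR1 and CTR3, 222 and 206 in cKO1 and cKO3, 317 and 299 in CTR2 and CTR4, and 243 and 279 in cKO2 and cKO4. Its difference was -0.35 ± 0.11. Fbln1 differed by -0.69 ± 0.25, and Tnc, with an unadjusted edgeR p of 0.051, by 0.32 ± 0.14.

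Gpc6 encodes a glypican known from limb growth and from astrocytes. Its CPM were 367, 365, 345 and 416 in CTR and 190, 349.8, 167 and 362 in cKO. The low values were those of cKO1 and cKO3, so the genotype difference was -0.13 within title numbers 26 to 32 and -0.99 within 67 to 86. In a fit with an interaction of genotype and title number range, chosen after these values were seen, Gpc6 had -0.86 ± 0.18 (edgeR, unadjusted p = 0.0015, adjusted p = 0.9998). Fmod, at -1.30 and 0.27 within the ranges, and Efemp2, at -0.24 and 0.23, also had an unadjusted p under 0.05. These are 3 of 41 members, or 7.32%, beside 3.44% of all genes, and 0 were called.

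Marker levels were set beside these differences. Of the 8 mural markers, Rgs5, a pericyte gene, was at 3.15 and 4.11 CPM in cKO1 and cKO3 and at 9.78 to 28.6 CPM in the other 6 libraries, and Myh11 was listed at 0 in cKO1 and cKO3. The other mural markers were mixed in cKO1 and cKO3, with Notch3 at 348 and 376 CPM, Des at 32.1 and 46.9, Mcam at 3.64 and 1.93, Tagln at 8.83 and 6.23 and Acta2 at 2.90 and 1.07. Notch3, which made up most of the mural sum, lay within the range of the other libraries. The mural sum was 422 ± 30.0 CPM in CTR and 428 ± 20.7 in cKO (SD, n = 4), and 429 to 449 in title numbers 26 to 32 against 380 to 436 in 67 to 86. Hematopoietic markers summed to 144 ± 63.3 CPM in CTR and 215 ± 52.4 in cKO, and to 74.2 to 198 in 26 to 32 against 145 to 287 in 67 to 86, and 0 of the 9 tested had a lower estimate in cKO. Fibroblast markers summed to 299 ± 26.5 CPM in CTR and 348 ± 30.8 in cKO, where Gsn did not overlap between genotypes. Osteolineage markers summed to 19990 ± 1087 CPM in 26 to 32 and 16960 ± 1588 in 67 to 86. Their part in the differences of matrix genes was not tested.

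Enzymes that build the sugar chains were largely expressed, with 37 of 46 genes tested. With edgeR 0 were called between genotypes and 1 had an unadjusted p under 0.05, Xylt2, which starts the chain on the core protein, at 0.24. Papss2, which makes the sulfate donor, was next at -0.46 with an unadjusted p of 0.059 in edgeR. Between title number ranges 5 had an unadjusted p under 0.05 and 0 were called, with Papss1 at 0.37 and Hs2st1 at -0.27 as those with the smallest p. The shares of all genes at this unadjusted threshold are the 4.43% and 11.6% given above.

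Of the elastic fibre and latent TGF-β binding genes outside the 46, 12 of 13 were tested and edgeR called 0 between genotypes. Adamtsl4, which promotes fibrillin microfibrils, had CPM of 32.4, 32.6, 31.2 and 32.7 in CTR and 60.3, 44.0, 68.8 and 41.2 in cKO. All cKO libraries were above all CTR libraries, with a log2 fold change of 0.73 (edgeR, unadjusted p = 0.0013, adjusted p = 0.999). DESeq2 called Adamtsl4 with the Wald test (adjusted p = 0.0486), beside 0.158% of all genes. With the likelihood ratio test it did so only when the title number range was a term (adjusted p = 0.0108), beside 0.322% of all genes. The range of the adjusted p over all settings was 0.0108 to 1. The next smallest p was that of Loxl4 at -0.44. Ltbp1 at -0.40 and Lox at 0.48 had the smallest p of the list between title number ranges, without being called.

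All 20 receptors of the members were tested, 0 were called and 0 had an unadjusted p under 0.05 between genotypes in edgeR, with Cd44 at -0.37 and Ddr1 at 0.27 nearest to it. Between title number ranges 2 did, Musk at -1.51 and Lrp4 at -0.81, both below 1 CPM/kb. That is 10% of the 20, beside 11.6% of all genes tested, so the share is near the background. Of 51 genes of the same families outside the 46, 29 were tested and edgeR called 0 between genotypes. Ccn4 at -0.81, Podn at 0.96 and Comp at -0.64 had an unadjusted p under 0.05 in edgeR. They are 10.3% of the 29 tested, beside 4.43% of all genes. Podn, an SLRP-related gene, had CPM of 49.6, 33.9, 36.1 and 32.8 in CTR and 86.5, 33.1, 128 and 48.5 in cKO, so its high libraries were cKO1 and cKO3.

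Between title number ranges 1 of the 29 family genes tested was called, beside 2 of all 14598 genes. It was Srgn, the proteoglycan of secretory granules in hematopoietic cells. Its CPM were 11.6, 11.1, 6.08 and 6.47 in CTR1, CTR3, cKO1 and cKO3 and 27.9, 31.0, 16.4 and 17.4 in CTR2, CTR4, cKO2 and cKO4. The log2 fold change was -1.40 (edgeR, adjusted p = 0.0475), and the adjusted p was between 0.0792 and 0.158 when any 1 library was left out. Smoc1, which belongs to the SPARC family, was next at 0.58 without being called.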

How the data were processed

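RNA-seq libraries of sorted MSPCs from 4 CTR and 4 cKO mice were used. According to the methods and the labels, the authors aligned trimmed reads to GRCm38 (mm10) with HISAT2, counted them per gene with HTSeq-count and deposited raw counts. Tool versions are not given in the sources used here. Some genes are listed at 0 in 1 library only, so a 0 sets no upper limit. Low odd counts outnumber even ones, a pattern whose origin in the counting is not known, so the values may not be plain read counts per gene and no interval for counting error is given.

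Symbols, exon lengths and positions were taken from GENCODE M21, a release other than that of the methods. In R 4.3.3, TMM scaling and edgeR 4.0.16 (glmQLFit, glmQLFTest, Benjamini-Hochberg adjustment, threshold 0.05) were applied to all genes with counts in all 8 libraries, without covariates between genotypes and with genotype as a term between title number ranges. Scripts were tested on simulated data. Within-range values are differences of mean log2(CPM + 0.5). Total counts of 31047344 to 38216877 per library leave genes with few counts least precise.

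Alternatives were other scalings and filters, DESeq2 1.42.0, limma-voom (limma 3.58.1), the replicate number as a block, title number range as a term, and each library left out. The interaction was added after the data were seen.

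Members and lists were chosen with earlier results of these data known. Values per library are given for the 10 members highest per length, those with an unadjusted p under 0.05 or no overlap between genotypes, and the 10 with the smallest p between title number ranges. Of each list the 2 genes with the smallest p per comparison are named. Eln, Comp and other genes outside these rules were named after their values were seen. Promoters are from a RefSeq table that matched 33 of the 46 genes.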

Additional observations from a re-analysis of the deposited data

Results flagged for a closer look

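In groups of 4 libraries, 8 of the 82 sets of CPM examined had 1 library whose distance to the nearest of the others exceeded Dixon's critical value as a part of the whole range, and chance gives about 1 in 20. In CTR these were Ogn in CTR2 (414 CPM), Hspg2 in CTR3 (125 CPM), Sdc1 in CTR4 (723 CPM) and Thbs3 in CTR1 (4.33 CPM), each below the other 3, and Sparcl1 in CTR3 (13.1 CPM), above them. In cKO they were Agrn (178 CPM) and Fn1 (57.5 CPM), both highest in cKO1, and Thbs3 (8.62 CPM), lowest in cKO1. The genotype difference of Efemp2 was 0.23 on the log2 scale within title numbers 67 to 86, where both cKO libraries were above both CTR libraries, and -0.24 within 26 to 32, where both were below. The separation of single libraries was not tested, and in the interaction fit the adjusted p of Efemp2 was 0.9998 with edgeR.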

How the results depend on the processing

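The number of members called between genotypes was 0 under every setting tried, and their number at an unadjusted p under 0.05 was 1 to 7, against 3 as reported, beside 3.58 to 6.07% of all genes. It was 1 without CTR2 or cKO1, 2 without CTR4 or cKO3, 5 without CTR3, 6 without cKO4, 6 with title number range as a term and 7 with the replicate block, where 5.56% of all genes had one. The replicate block called 0 members, and same-numbered libraries deviated together with correlations of 0.147, 0.194, 0.0925 and 0.0631, not every library matching best with its own number, so the numbers were not taken as pairs. Between title number ranges DESeq2 called 3 members with the Wald test and 3 with the likelihood ratio test, beside 380 and 342 of all genes, against 0 in edgeR and limma-voom, and the cause was not tested. Replicate numbers lie within a range, so no block could be fitted there. Without CTR4 15 members (36.6%) had an unadjusted p under 0.05 there, beside 10.5% of all genes. Without its member with the highest count, the summed share was 2.71% in CTR and 2.72% in cKO. Leaving out 1 library turned the sign of 5 small genotype differences, whose ranges were -0.0099 to 0.18 for Gas6, -0.072 to 0.11 for Fbln5, -0.12 to 0.13 for Ogn, -0.0074 to 0.12 for Sdc1 and -0.080 to 0.17 for Sparc. Among the remaining values of single genes under other settings, 688 kept direction and side of the threshold, 10 lost it, 10 gained it and 5 moved by more than the spread. The median of the members between genotypes was -0.10 to 0.0041 with 1 library left out. Depth limits Eln, Mfap4, Mfap5 and the other genes with few counts.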
